A study of Mus musculus with 6 samples.

Results

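The cell cycle and DNA replication genes described here are a fixed list of 40 mouse genes for cyclins and their kinases, the factors and enzymes of DNA replication, and the machinery of mitosis. A gene was taken from the probe sets whose annotation gives it as their only symbol, and several probe sets of a gene were reduced to the one whose 6-array mean was highest. By this rule 39 of the 40 genes were measured, out of 18194 genes in the table, through 96 probe sets. Ccnb1 had no such probe set in the annotation used and was not analysed here. Affymetrix expression arrays had been run on 4 MIN6 samples and 2 pancreatic islet samples. MIN6 is a mouse insulinoma line of beta cells that divides in culture. Of the MIN6 samples, 2 had been infected with an adenovirus for miR-7a (AdmiR7a), 1 with an adenovirus for miR-7b (AdmiR7b) and 1 with an adenovirus for green fluorescent protein (AdGFP). All 4 infections were at a multiplicity of 250 and lasted 48 h, with glucose at 4.5 g/l and serum at 2%, so the AdGFP control carried a virus too. Islets came from 1 sample in which miR-7a2 had been deleted in beta cells with Lox/Cre (KO) and from 1 wild-type sample (WT), both on a C57BL/6 background. The labels used here name neither the Cre driver nor the age or number of the mice. The other cells of a KO islet keep the gene.

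Cells enter the cycle when D-type cyclins with Cdk4 or Cdk6, and then E-type cyclins with Cdk2, phosphorylate the retinoblastoma proteins and release the E2F factors. E2F factors switch on the genes for DNA synthesis, while the genes for mitosis are switched on later by complexes that contain B-Myb and FoxM1 and bind the so-called CHR element. Beta cells of adult islets rarely divide, and in mice cyclin D2 and Cdk4 are needed for their number to grow. MIN6 cells descend from a tumour that formed in mice expressing the SV40 large T antigen in beta cells, a protein that binds the retinoblastoma proteins. miR-7 is an abundant microRNA of endocrine cells, and microRNAs lower the messages that pair with their seed.

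The overexpressed microRNAs are shown first because both vectors carry the same seed, which is why their 3 arrays are also pooled below. The mature sequences are those of RefSeq (GRCm38.p6), with miR-7a-5p from the miR-7a2 hairpin gene Mir7-2, at chr7:78888295-78888317 on the plus strand, and miR-7b-5p from Mir7b, at chr17:56243017-56243040 on the plus strand. Capitals mark the seed, bases 2 to 8 from the 5′ end.
mmu-miR-7a-5p: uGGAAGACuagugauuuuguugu
mmu-miR-7b-5p: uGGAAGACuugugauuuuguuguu
The seeds are identical. Over the 23 bases of miR-7a-5p the only substitution is A10U, counted from the 5′ end with the miR-7a base first, and miR-7b-5p is 1 base longer.

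Promoter sequences were set beside the expression values because E2F sites and CHR elements are the textbook marks of replication and mitosis genes. RefSeq promoters of 300 bases, 250 before to 50 after each start, were held for 33 of the 40 genes, as 38 promoters. None was matched for Aurkb, Ccna2, Ccnd1, Ccnd2, Ccne2, Foxm1 and Mcm4. E2F sites, CHR elements and CCAAT boxes were searched on both strands. The E2F site was TTCCCGC or TTCGCGC or TTGCCGC or TTGGCGC, with overlapping matches counted separately. The CHR element was TTTGAA or TTCGAA. The CCAAT box was CCAAT. A CHR element was found in 10 of 13 promoters of the mitotic genes and the proliferation markers (76.9%), against 13.4% of the 11262 promoters of genes tested in MIN6 against islets and 19.2% of all 32851 promoters in the table. A CHR element together with 2 or more CCAAT boxes was found in 8 of those 13 (61.5%), against 2.06% of the tested genes' promoters and 2.31% of all promoters. An E2F site was found in 11 of 16 promoters of the replication genes and transcription factors (68.8%), against 17.1% and 9.57%. Of the 9 promoters of G1 and S cyclins, kinases and inhibitors, 2 held an E2F site (22.2%) and 0 held a CHR element. The 13 mitotic promoters include that of Ccnb1. These are matches to letters, given as a description without a test.

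**Figure D1:**
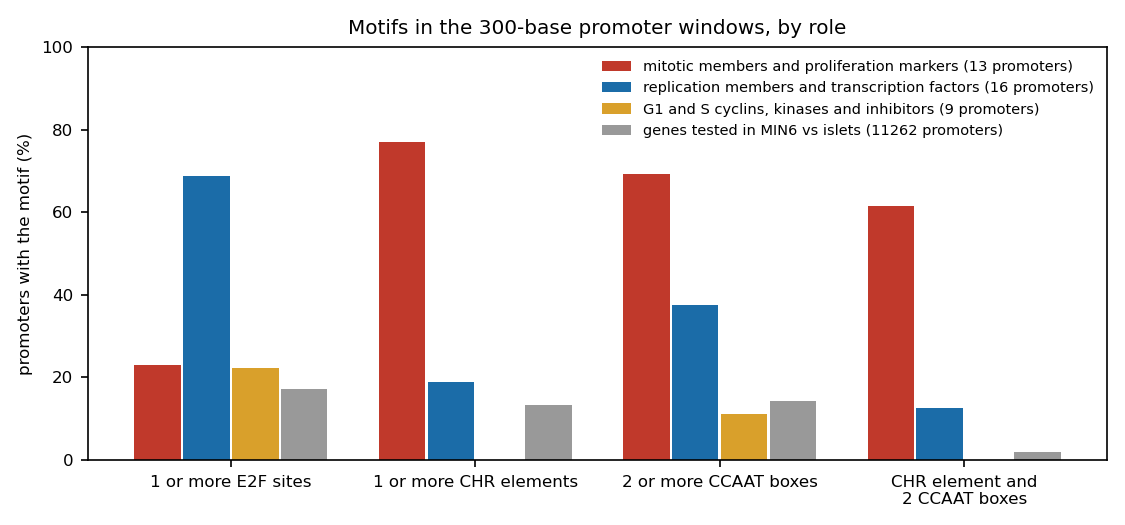
Share of 300-base promoters (vertical axis, percent) with each motif (horizontal axis), for 3 groups of members and for the genes tested in MIN6 against islets. CHR elements and paired CCAAT boxes are most frequent in the red bars of the mitotic genes (76.9% and 69.2%), and E2F sites in the blue bars of the replication genes (68.8%).

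Of the 10 genes with a CHR element and 2 or more CCAAT boxes, the 3 with the highest fitted MIN6 minus islets difference are shown, on the gene's strand 5′ to 3′, from 170 bases before to 30 after the start. Capitals mark CHR elements and CCAAT boxes on either strand. The Mki67 promoter lies at chr7:135716350-135716549 (minus strand), that of Top2a at chr11:99024160-99024359 (minus strand) and that of Ube2c at chr2:164769759-164769958 (plus strand), all in GRCm38.p6.
Mki67: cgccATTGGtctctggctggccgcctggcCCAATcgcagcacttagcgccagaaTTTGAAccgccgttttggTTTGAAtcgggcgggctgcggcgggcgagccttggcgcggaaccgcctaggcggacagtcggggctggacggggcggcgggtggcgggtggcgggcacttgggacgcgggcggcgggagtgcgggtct
Top2a: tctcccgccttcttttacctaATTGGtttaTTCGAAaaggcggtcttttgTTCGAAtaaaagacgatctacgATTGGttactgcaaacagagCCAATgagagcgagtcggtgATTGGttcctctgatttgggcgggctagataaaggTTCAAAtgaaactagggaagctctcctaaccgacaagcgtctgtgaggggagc
Ube2c: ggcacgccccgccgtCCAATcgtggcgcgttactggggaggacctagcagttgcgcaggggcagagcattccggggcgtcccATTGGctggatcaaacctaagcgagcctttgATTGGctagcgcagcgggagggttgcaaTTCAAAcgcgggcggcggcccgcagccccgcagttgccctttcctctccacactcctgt
The stretch shown holds 2 CHR elements for Mki67, 3 for Top2a and 1 for Ube2c.

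Of the 7 genes with 2 or more E2F matches, the same rule gave Cdk1, at chr10:69352883-69353082 (minus strand), Mcm5, at chr8:75109339-75109538 (plus strand), and Mcm3, at chr1:20820283-20820482 (minus strand). Capitals here mark E2F matches only.
Cdk1: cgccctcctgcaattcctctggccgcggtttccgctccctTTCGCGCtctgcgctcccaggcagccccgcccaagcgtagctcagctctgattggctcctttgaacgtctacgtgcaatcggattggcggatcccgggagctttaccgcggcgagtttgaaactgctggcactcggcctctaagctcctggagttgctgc
Mcm5: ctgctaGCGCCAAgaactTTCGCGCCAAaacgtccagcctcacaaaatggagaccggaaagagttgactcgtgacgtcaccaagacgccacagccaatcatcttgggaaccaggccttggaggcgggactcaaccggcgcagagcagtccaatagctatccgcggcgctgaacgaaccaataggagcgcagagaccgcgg
Mcm3: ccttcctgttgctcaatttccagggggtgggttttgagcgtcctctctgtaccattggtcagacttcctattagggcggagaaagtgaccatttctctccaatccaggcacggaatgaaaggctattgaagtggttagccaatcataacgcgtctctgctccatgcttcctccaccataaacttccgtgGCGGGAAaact
Mcm5 holds 3 E2F matches in this stretch, of which 2 overlap. Cdk1, the mitotic kinase, carries both classes of motif, with 1 E2F match and 2 CHR elements in the same stretch.

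Values are the authors' log2 GCRMA levels, and a level under 4 is treated as background. Between 44.7% and 46.4% of the 45101 probe sets exceeded 4 on each array, and the upper quartile lay between 7.95 and 8.01 on every array. The insulin gene Ins2, the defining product of beta cells, stood at 15.69 to 15.91 in MIN6 and at 15.82 (KO) and 15.83 (WT) in islets. Of 8 measured beta cell markers only Slc2a2, the glucose transporter of mouse beta cells, was under 4 on all MIN6 arrays (2.52 to 3.84, against 14.49 and 14.15 in KO and WT islets). The beta cell list summed to 90.55 to 96.15 in MIN6, against 108.51 and 107.54. The islet arrays also held other cells, and each marker list is given by its summed log2 level. The 7 endothelial markers summed to 17.11 to 18.32 on MIN6 arrays, against 56.05 in KO and 58.01 in WT islets, with all 7 above 4 in both islets and 6 under 4 on all MIN6 arrays. The 8 immune markers summed to 18.00 to 18.04 in MIN6, against 50.27 and 49.51 in KO and WT islets, with 6 above 4 in both islets and all 8 under 4 on all MIN6 arrays. The 7 stellate and fibroblast markers summed to 15.77 to 15.88, against 29.03 and 30.19, with 2 above 4 in both islets and all 7 under 4 in MIN6. The 4 delta and PP cell markers summed to 22.30 to 23.13, against 55.05 and 55.02, and the 3 measured alpha cell markers to 32.10 to 32.87, against 37.09 and 36.97. The 6 measured acinar markers, of which 1 exceeded 4 in both islets, summed to 13.51 to 13.55, against 15.89 and 16.98. The 4 measured ductal markers, of which 1 did, summed to 18.65 to 18.93, against 22.48 and 20.76. The 1 measured Schwann cell marker stood at 3.02 on every array. Actin control probe sets at the 3′ end read 1.43 to 1.48 above those at the 5′ end in MIN6, against 2.65 (KO) and 2.77 (WT) in islets, a sign of RNA integrity. Their part in the results below was not tested. In such bulk samples, fewer cells of a type and less RNA per cell cannot be told apart.

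The comparison of MIN6 with islets sets a dividing line against a largely resting tissue. Of the 38 members with a mean of at least 4 over the 6 arrays, 34 were higher in MIN6 and 2 were lower at an adjusted p under 0.05 (limma, 4 MIN6 against 2 islet arrays), while 35.4% of the 10635 genes tested were higher and 32.2% were lower. Of these 38, 16 reached the mean of 4 through MIN6 alone and 1, Ccnd1, through islets alone, and these had to differ. The 21 members with a mean of at least 4 in both systems had 18 higher and 1 lower, with a median MIN6 minus islets difference of 3.37 (log2). Under that filter 65.0% of 9765 genes were called, 51.2% of the calls being higher, and the median over all genes was 0.02. System also stands for culture, virus, medium and tissue make-up, and these cannot be told apart here. The counts of 34 and 2 were the same when any 1 of the 6 arrays was left out, but they include the members that had to differ. The 21 members with a mean of at least 4 in both systems were not refitted in this way.

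**Figure D2:**
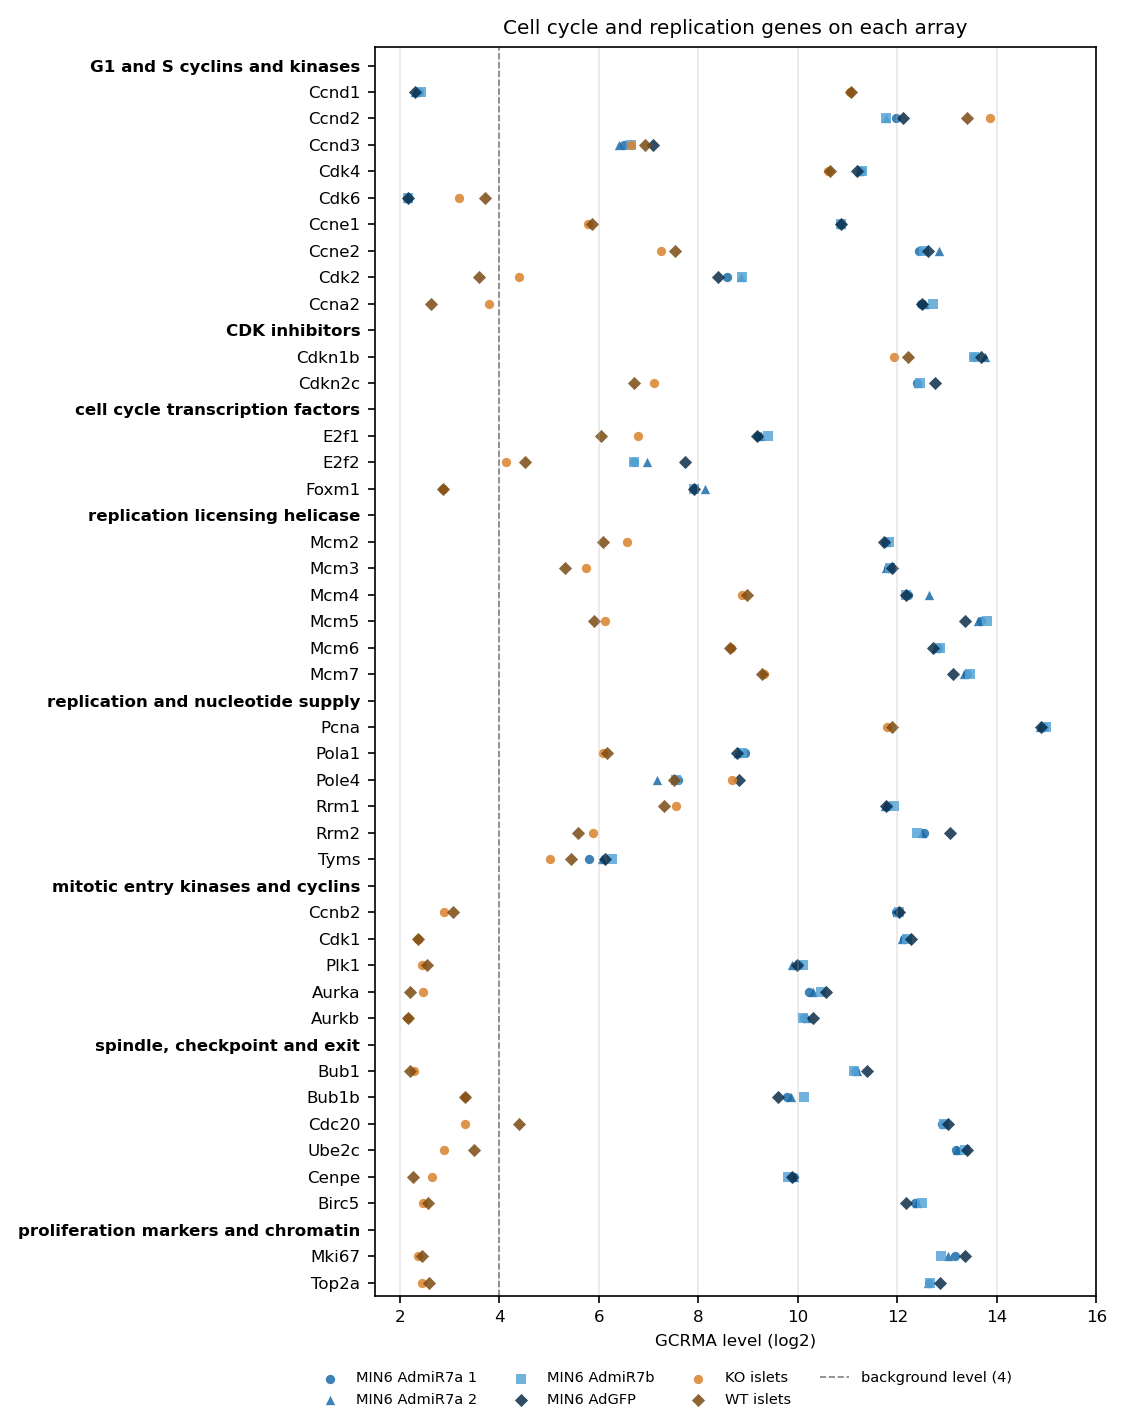
GCRMA level (log2, horizontal axis) of the 39 measured genes on each array, by role, with blue symbols for MIN6, brown and orange symbols for islets and the background level of 4 as a dashed line. The MIN6 arrays lie close together and above the islets for most genes, whereas Ccnd1 and Ccnd2 lie the other way and Ccnd3 and Pole4 overlap.

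The proliferation markers and nearly all mitotic genes were measured in MIN6 and at background in islets, so they passed the filter through MIN6 alone. Mki67, which encodes the Ki-67 antigen of cycling cells, stood at 13.15 and 13.01 with AdmiR7a, 12.87 with AdmiR7b and 13.37 with AdGFP, against 2.36 in KO and 2.44 in WT islets. All MIN6 values were high and both islet values were at background, so Mki67 had to differ and no p-value is given. The difference is given as at least 549-fold higher in MIN6, with islets set to the background level. The same bound is used wherever "at least" is written below. Top2a, the topoisomerase that untangles replicated chromosomes, stood at 12.64, 12.61, 12.66 and 12.86 on the same MIN6 arrays, against 2.45 and 2.60 in KO and WT islets, and was at least 414-fold higher.

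All 5 measured genes of mitotic entry were at background in both islets. With islets set to 4 they were higher in MIN6 by at least 6.00 to 8.18 (log2). Cdk1, the kinase that drives mitosis, stood at 12.14 and 12.10 with AdmiR7a, 12.20 with AdmiR7b and 12.28 with AdGFP, against 2.36 in both islets, and was at least 290-fold higher. Ccnb2, a cyclin partner of Cdk1, was at least 257-fold higher (11.97 to 12.03 in MIN6, against 2.89 and 3.07 in KO and WT islets). The aurora kinases Aurka and Aurkb, which build the spindle and correct its attachments, were at least 84.1-fold and 72.4-fold higher. Plk1, the polo-like kinase of mitotic entry, was at least 64.0-fold higher. No islet value of this role exceeded 3.07.

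Of the 6 genes of spindle, checkpoint and mitotic exit, 5 were at background in both islets, and all 6 had an islet mean under 4. Ube2c, the ubiquitin-conjugating enzyme of the anaphase-promoting complex, stood at 13.19, 13.21, 13.36 and 13.41 on the MIN6 arrays, against 2.88 in KO and 3.49 in WT islets, and was at least 627-fold higher. Birc5, the chromosomal passenger protein survivin, was at least 328-fold higher and the checkpoint kinase Bub1 at least 148-fold higher. Cenpe, the kinesin of the kinetochore, and Bub1b, the checkpoint protein BubR1, were at least 59.0-fold and 57.4-fold higher. Cdc20, which activates the anaphase-promoting complex, stood at 12.89 to 13.01 in MIN6, against 3.32 in KO and 4.41 in WT islets. It was the only gene of these 3 roles with an islet value above 4. Its difference was 9.09, and it too passed the filter through MIN6 alone.

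The replication genes were also higher in MIN6, but from measured levels in islets on the probe sets used. Some other probe sets of Mcm3, Mcm5 and Rrm2 were under 4 in both islets. For Mcm5, 1 such probe set read 2.35 in KO and 2.40 in WT. All 6 subunits of the replicative helicase, which is loaded at origins to license them, exceeded 4 in both islets on the probe sets used. All 6 were higher in MIN6, with a median difference of 4.79. Mcm5 stood at 13.68 and 13.63 with AdmiR7a, 13.80 with AdmiR7b and 13.35 with AdGFP, against 6.13 in KO and 5.91 in WT islets, which is 194-fold (difference 7.60 ± 0.15 SE; adjusted p = 1.44e-07). Mcm3 followed at 6.30 ± 0.13 and Mcm2 at 5.44 ± 0.15. Mcm6, Mcm7 and Mcm4 differed less, at 4.14 ± 0.09, 4.02 ± 0.12 and 3.37 ± 0.16, with islet levels of 8.65 to 9.33. Levels on different probe sets are not comparable, so a subunit's difference and not its level is ranked.

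Of the 6 other replication and nucleotide genes, 5 were higher and 1 was not called. Rrm2, the regulated subunit of ribonucleotide reductase, stood at 12.53 and 12.49 with AdmiR7a, 12.40 with AdmiR7b and 13.07 with AdGFP, against 5.88 in KO and 5.58 in WT islets, a 119-fold difference. Rrm1, its large subunit, was higher by 4.39 ± 0.11 (SE). The sliding clamp Pcna was higher by 3.08 ± 0.09 and the primase-polymerase subunit Pola1 by 2.72 ± 0.09. Tyms, which makes thymidylate, was higher by 0.83 ± 0.18 (adjusted p = 0.0062) on the probe set used, with 5.81 to 6.27 in MIN6, against 5.02 and 5.45 in KO and WT islets. Another Tyms probe set read 5.30 to 5.82 in MIN6, against 2.99 in both islets, and the rest lay at the floor on all 6 arrays. Pole4, a small histone-fold subunit of DNA polymerase epsilon, overlapped between the systems, with 7.16 to 8.82 in MIN6 and 8.67 and 7.51 in KO and WT islets (difference -0.31 ± 0.53 SE; adjusted p = 0.621).

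The D-type cyclins were the exception to the direction of the list. Ccnd1 was at background on all MIN6 arrays, at 2.40 and 2.32 with AdmiR7a, 2.43 with AdmiR7b and 2.32 with AdGFP, against 11.05 in KO and 11.07 in WT islets. Both islet values lay far above the MIN6 values, and Ccnd1 was at least 134-fold lower in MIN6, with MIN6 set to the background level. It passed the filter through islets alone, so no p-value is given. Its other 2 probe sets were also under 4 on all MIN6 arrays and above 4 in both islets. Ccnd2, the D-type cyclin that mouse islets depend on, was high in both systems and lower in MIN6, with 11.98 and 11.77 with AdmiR7a, 11.76 with AdmiR7b and 12.12 with AdGFP, against 13.86 in KO and 13.40 in WT islets. Its difference was -1.72 ± 0.17 (SE; adjusted p = 2.45e-04), and 6 of its 7 probe sets separated the systems in this direction while 1 overlapped. Ccnd3 overlapped, with 6.40 to 7.10 in MIN6 and 6.64 and 6.93 in KO and WT islets (difference -0.12 ± 0.21 SE; adjusted p = 0.638). Ccnd1 is also expressed by non-endocrine cells. Endothelial markers and most immune markers exceeded 4 in both islets, whereas most acinar, ductal, stellate and fibroblast markers did not. The ductal marker Krt7 was high in MIN6 too (11.57 to 11.84). Which islet cells carried Ccnd1 was not tested.

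**Figure D3:**
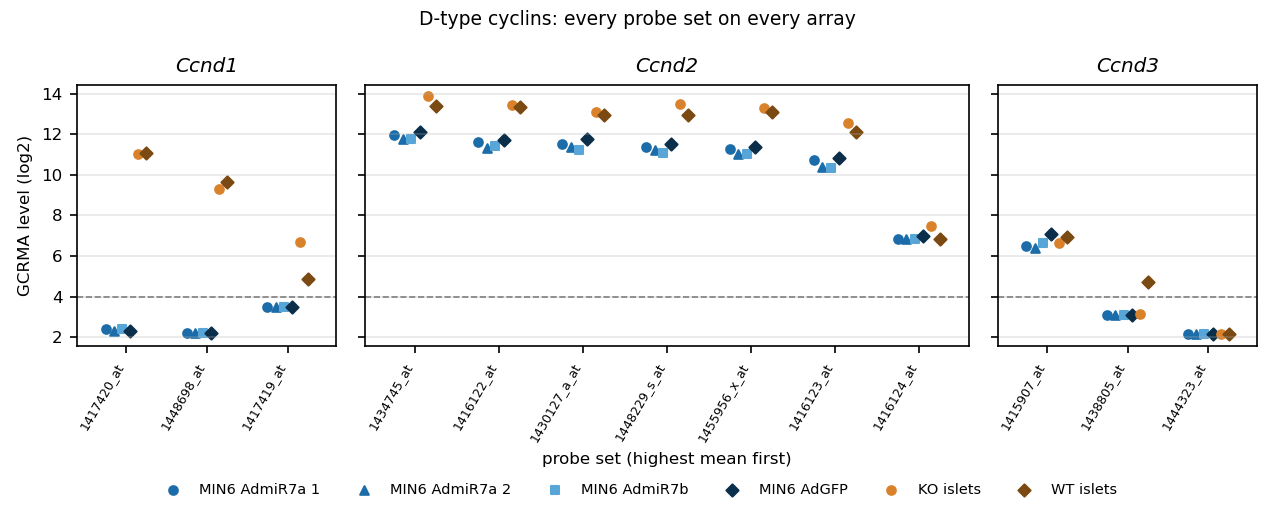
GCRMA level (log2, vertical axis) of every probe set (horizontal axis) of the 3 D-type cyclin genes on each of the 6 arrays, with the background level of 4 as a dashed line. The 3 Ccnd1 probe sets lie under 4 in MIN6, and 6 of the 7 Ccnd2 probe sets lie lower in MIN6 than in islets.

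Downstream of the D-type cyclins the direction turned. Cdk4, their main kinase partner in beta cells, was higher by 0.61 ± 0.08 (SE; adjusted p = 9.16e-04), with 11.19 to 11.29 in MIN6, against 10.61 and 10.65 in KO and WT islets. Cdk6, the other partner, was under 4 everywhere, at 2.17 on all MIN6 arrays and at 3.20 and 3.71 in KO and WT islets, and was not tested. The E-type cyclins of S phase entry, Ccne1 and Ccne2, were higher by 5.04 ± 0.08 and 5.21 ± 0.15. Ccne1 read the same value on 3 of the 4 MIN6 arrays, so its spread is understated. The other Ccne1 probe set was at background in both islets (3.02 in KO and 2.67 in WT), with a difference of 7.26. Cdk2, the kinase of the E-type cyclins, stood at 8.40 to 8.89 in MIN6, against 4.39 and 3.60 in KO and WT islets. Ccna2, the cyclin of S phase and mitosis, was at background in both islets (3.79 and 2.64) and at least 378-fold higher in MIN6. In all, 5 of the 8 tested genes of this role were higher and 2 were lower, against 35.4% and 32.2% of all genes tested. Of these calls, 2 (Ccna2 and Cdk2) passed the filter through MIN6 alone and 1 (Ccnd1) through islets alone, and these had to differ.

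Both inhibitors on the list were higher in the dividing line. Cdkn1b, the p27 inhibitor of cyclin-dependent kinases, was higher by 1.57 ± 0.12 (SE), with 13.55 to 13.77 in MIN6, against 11.93 and 12.21 in KO and WT islets. Cdkn2c, the p18 inhibitor of Cdk4 and Cdk6, stood at 12.39 and 12.42 with AdmiR7a, 12.45 with AdmiR7b and 12.76 with AdGFP, against 7.10 in KO and 6.71 in WT islets, which is 48.5-fold. Of the 3 transcription factors, E2f1 was higher by 2.84 ± 0.21 and E2f2 by 2.70 ± 0.32. Foxm1, an activator of mitotic genes, was at 7.92 to 8.13 in MIN6 and at 2.88 in both islets, at least 15.7-fold higher.

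A wider list of 118 other cell cycle genes had 103 of 113 tested genes higher (91.2%) and 4 lower (3.5%). Over all genes tested, 35.4% were higher and 32.2% lower. Of the 113, 43 passed the filter through MIN6 alone. The 6 named by fitted difference are all of mitosis, and 5 of them were at background in both islets. Cenpa was at least 204-fold, Nek2 at least 182-fold, Nusap1 at least 154-fold, Ncaph at least 136-fold and Hmmr at least 135-fold higher, bounds that give no order of true differences. Pbk, with islet values of 3.61 in KO and 4.38 in WT, had a difference of 9.31 and also passed the filter through MIN6 alone. All 32 tested replication genes of that list were higher. Some of them were at background in both islets and had to be higher, such as Orc1 (2.21 in KO and 2.23 in WT) and Cdc6 (2.17 and 2.38). The 4 lower genes were Pttg1, the securin, at -2.35 ± 0.16, the repressor E2f5 at -1.49 ± 0.23, the antiproliferative Btg1 at -0.83 ± 0.13 and Myc at -0.70 ± 0.20. Among the brakes 12 of 18 were higher, including Cdkn1a, the p21 inhibitor (2.20 ± 0.43), the retinoblastoma relative Rbl1 (2.64 ± 0.16) and Men1, the menin tumour suppressor (0.80 ± 0.09). Cdkn2a, also a brake, was at background in both islets (2.45 in KO and 2.30 in WT) and passed the filter through MIN6 alone. Rb1 (-0.33 ± 0.24; adjusted p = 0.264) and Fbxw7, a ubiquitin ligase subunit that targets cyclin E (0.16 ± 0.20; adjusted p = 0.502), were not called. Skp2, which marks p27 for destruction, was higher by 3.85 ± 0.18. Mycn, with an islet mean under 4, passed the filter through MIN6 alone and differed by 3.89. Trp53 was not analysed here.

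The control arrays of the systems, AdGFP in MIN6 and WT islets, give the same contrast without miR-7 vectors or the deletion, at 1 array each and so with no test. At a log2 size of at least 1, 33 of 38 members were higher with AdGFP and 2 were lower, while 18.8% of the 10787 genes compared were higher and 20.3% lower. Both arrays are among those fitted above, so the counts are no separate check. Members under 4 in WT islets passed the filter through AdGFP alone and were bound to read higher there.

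**Figure D4:**
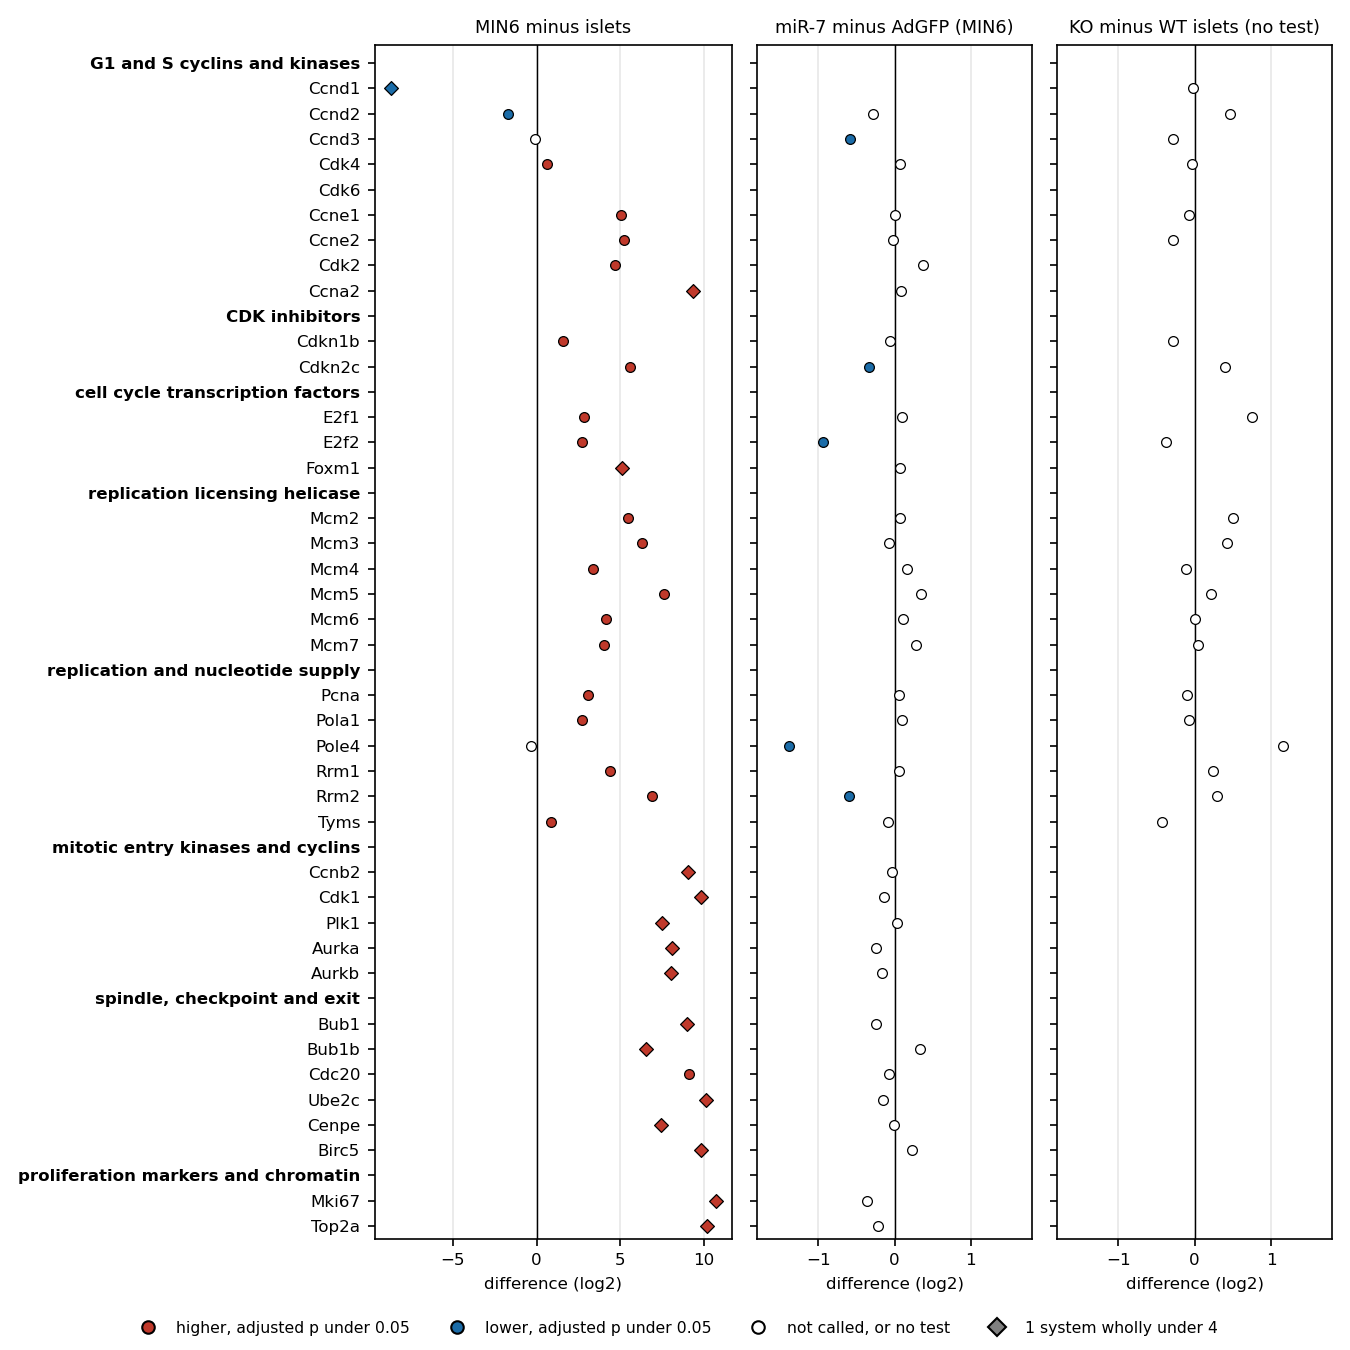
Differences (log2, horizontal axes) of each member for MIN6 minus islets, miR-7 minus AdGFP in MIN6, and KO minus WT islets, by role, for genes that passed the filter of each comparison. Filled symbols passed an adjusted p under 0.05, diamonds mark genes with 1 system wholly under 4, and the left panel has a wider axis than the others.

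The second question was whether raised miR-7 moved these genes in MIN6. Against AdGFP, the 3 arrays with a miR-7 vector showed 0 members higher and 5 lower of 37 tested (limma, 2 residual degrees of freedom), while 14% of the 10367 genes tested were higher and 12.1% were lower. The members' median difference was -0.02, against 0.06 over all genes. The members' differences ran between -1.39 for Pole4 and 0.37 for Cdk2. The range over the 4 MIN6 arrays had a median of 0.24 over the 37 members. All rests on 1 AdGFP array, assumed to vary like the miR-7 arrays, and nothing in the labels says that the AdmiR7a pair were separate cultures. When any 1 miR-7 array was left out, 0 genes were called, the lowest adjusted p being 0.0650 without AdmiR7a array 1, 0.0782 without AdmiR7a array 2 and 0.0662 without AdmiR7b. Without the filter on low values, 943 genes and 0 members were called.

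The 5 lower genes belong to different steps of the cycle. Their share of the members tested was close to the 12.1% of all tested genes that were lower. The count of lower genes therefore does not set the members apart from other genes. Pole4 stood at 7.58 and 7.16 with AdmiR7a and 7.55 with AdmiR7b, against 8.82 with AdGFP. All 3 miR-7 values lay more than 1 unit under the control, and Pole4 fell by 1.39 on the log2 scale (± 0.20 SE; adjusted p = 0.0219). Its second probe set gave 3.92, 4.12 and 4.39 on these arrays, against 6.89 with AdGFP, in the same direction. E2f2, an activator E2F, fell by 0.93 (± 0.14 SE; adjusted p = 0.0233), with 6.71 and 6.97 with AdmiR7a and 6.71 with AdmiR7b, against 7.73 with AdGFP. Its second probe set read 5.29 on each miR-7 array, against 6.71 with AdGFP. Several low GCRMA values are identical between arrays, so the spread behind such genes is understated.

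Rrm2 fell by 0.60 (± 0.09 SE; adjusted p = 0.0228), and its other 2 probe sets were lower by 0.62 and 0.68 on average. Ccnd3 fell by 0.58 (± 0.12 SE; adjusted p = 0.0416), with 6.50 and 6.40 with AdmiR7a and 6.65 with AdmiR7b, against 7.10 with AdGFP. Cdkn2c fell by 0.34 (± 0.07 SE; adjusted p = 0.0417), on the values given above. For these 3 genes every miR-7 array lay under the control.

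**Figure D5:**
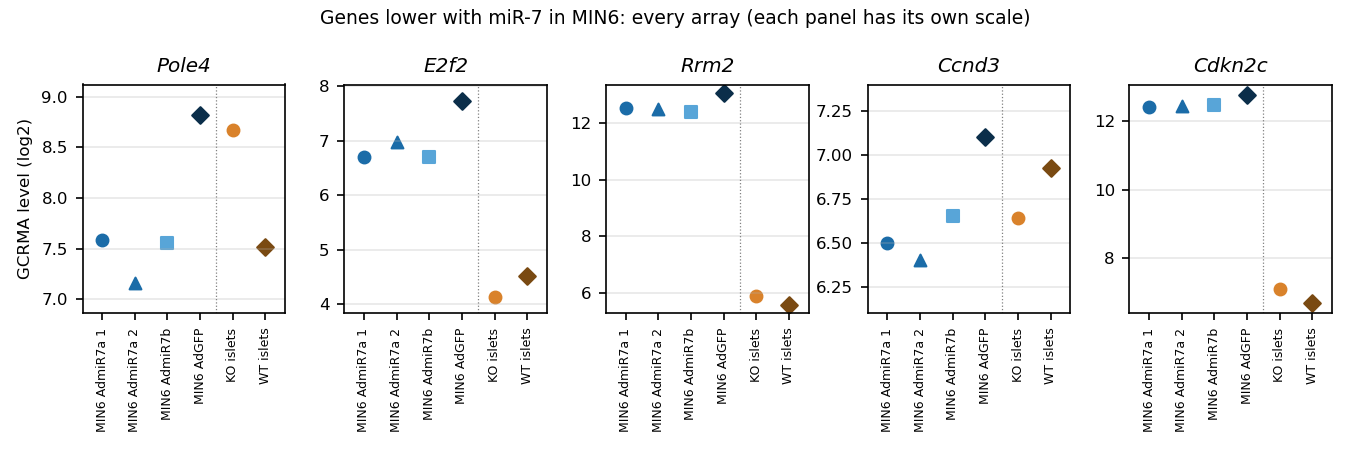
GCRMA level (log2, vertical axes, each with its own scale) of the 5 members that fell with miR-7 in MIN6, on each array (horizontal axis), with a dotted line between MIN6 and islets. All 3 miR-7 arrays lie under AdGFP in each panel, and in islets Pole4 is higher in KO (8.67) than in WT (7.51).

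No mitotic gene or proliferation marker was called in this fit. Mki67 was at -0.36 ± 0.13 (SE; adjusted p = 0.120), Top2a at -0.22 ± 0.07 (adjusted p = 0.0956) and Bub1 at -0.24 ± 0.07 (adjusted p = 0.0841), with all 3 miR-7 arrays below AdGFP for each. Top2a was called lower with an intensity trend in the fit (adjusted p = 0.0485) and with the mean of its probe sets (-0.33; adjusted p = 0.0499). Bub1b, at 0.33 ± 0.17 (adjusted p = 0.213), and Birc5, at 0.23 ± 0.09 (adjusted p = 0.124), lay above AdGFP on all 3 arrays. The helicase subunits had no call. Of the 6, 5 had a positive difference and 1, Mcm3, a negative one, with a median of 0.14, against 0.06 over all genes. Mcm3 was at -0.07 ± 0.08 (adjusted p = 0.546), Mcm5 at 0.35 ± 0.10 (adjusted p = 0.0715) and Mcm7 at 0.28 ± 0.09 (adjusted p = 0.0865). With 4 arrays, a p that misses the threshold does not show that a gene was unmoved. Of 7 tested beta cell markers 5 were lower with miR-7 in the same fit, and their part in the members' values was not tested.

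Of the wider list, 15 of 113 genes were higher (13.3%) and 12 lower (10.6%) with miR-7, close to the 14% and 12.1% over all genes. The genes with the largest rises were Mycn (1.16 ± 0.22 SE), the origin recognition subunit Orc1 (0.98 ± 0.18), Ccng1, a target of p53 (0.89 ± 0.15), the repressor E2f6 (0.75 ± 0.11), Cdkn2a (0.67 ± 0.15) and Myc (0.60 ± 0.09). Those with the largest falls were the kinesin Kif2c (-0.73 ± 0.12), the kinetochore gene Nuf2 (-0.73 ± 0.10), thymidine kinase Tk1 (-0.71 ± 0.08), E2f5 (-0.68 ± 0.10), the clamp loader Rfc5 (-0.68 ± 0.08) and the replication protein Rpa3 (-0.65 ± 0.11). Rb1 fell by 0.57 (± 0.12 SE; adjusted p = 0.0396) and Fbxw7 rose by 0.60 (± 0.08; adjusted p = 0.0209). Cdkn1a (0.93 ± 0.25; adjusted p = 0.0658), Rbl1 (0.29 ± 0.11), Skp2 (-0.33 ± 0.12) and Men1 (-0.03 ± 0.10) did not pass.

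Taken by vector, the data carried fewer calls. In AdmiR7a against AdGFP, with 1 residual degree of freedom, limma called 0% of genes and no member (lowest adjusted p 0.0666; 3809 genes had an unadjusted p under 0.05). In AdmiR7b against AdmiR7a it also called 0% (lowest adjusted p 0.739; 597 genes with an unadjusted p under 0.05). There the members' differences ran between -0.25 for Mcm4 and 0.33 for Tyms. AdmiR7b against AdGFP has 1 array a side and no test. At a log2 size of at least 1, 3.72% of 10361 genes were higher and 4.41% lower, and 2 members were lower, Pole4 at -1.27 and E2f2 at -1.02. AdmiR7b and AdmiR7a share the AdGFP array, and the AdmiR7a means for these genes were -1.45 and -0.89. Of the wider list, 4 of 113 genes were higher with AdmiR7b by that size (3.5%) and 0 were lower. They were Mycn (1.46), Cdkn1a (1.24), Orc1 (1.21) and Ccng1 (1.05).

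The third comparison asked what the deletion of miR-7a2 in beta cells did in islets, with 1 array of each genotype and therefore no replicate check. The 22 members with an islet mean of at least 4 split into 11 that read higher and 11 that read lower in KO, and their median difference was -0.01. Pole4 alone reached a log2 size of 1, while 1.61% of the 10553 genes compared were higher and 1.23% lower by that size. Pole4 stood at 8.67 in KO, against 7.51 in WT (1.16, or 2.23-fold), and its second probe set at 7.18, against 6.00. The direction was opposite to that with the miR-7 vectors in MIN6, and the comparisons share no array. The mean of its 3 probe sets, 1 of which lies at the floor of the scale, differed by 0.78.

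The other members above background in islets differed less. E2f1 was at 6.80 in KO, against 6.04 in WT (0.75), but at 6.14 and 6.16 on another probe set above background (-0.02). Mcm2 was at 6.58, against 6.08 (0.50), but its other probe set went the opposite way, with 6.04 in KO and 6.65 in WT (-0.61). Ccnd2 was at 13.86, against 13.40 (0.47). On the other side, Tyms was at 5.02, against 5.45 (-0.43), and E2f2 at 4.14, against 4.51 (-0.38). Rrm2 (0.30), Cdkn2c (0.40) and Ccnd3 (-0.29), which fell with miR-7 in MIN6, gave no shared direction. Ccnd1 read 11.05 in KO and 11.07 in WT on the probe set used, 6.71 and 4.86 on its weakest probe set and 9.30 and 9.67 on the third. No mitotic gene had an islet mean of 4, so the proliferation markers carry no information on the genotypes beyond that bound: Mki67 was at 2.36 and 2.44 and Top2a at 2.45 and 2.60 in KO and WT. Ccna2 (3.79 and 2.64) and Cdc20 (3.32 and 4.41) differed by more than 1 at or near background.

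Of the wider list, 1 of 70 genes compared in islets reached a log2 size of 1, Cdkn1a, at 10.22 in KO, against 9.06 in WT (1.15). Rb1 stood at 11.24, against 10.66 (0.57), Rbl1 at 7.95, against 7.55 (0.40), and Skp2 at 5.77, against 6.25 (-0.48). Myc, Men1 and Fbxw7 differed by 0.12, 0.05 and 0.05. The summed endothelial marker level was 56.05 in KO and 58.01 in WT, with Pecam1 at 5.19, against 6.30, and the part of such cells in these differences was not tested.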

How the data were processed

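Expression of 4 MIN6 and 2 islet samples was deposited as 1 table of log2 probe set intensities, which the authors made with GCRMA and the affy package, per the submitters' processing notes (versions not given in the sources used here). GCRMA corrects background and normalizes arrays together, and its lowest value here is 2.17. Up to 33.3% of an array's probe sets lie at that floor. Whether other arrays were normalized with these is not stated, and the depth of an array is not a count: the number of arrays limits the precision.

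Symbols came from GEO's platform annotation (34958 probe sets with 1 symbol, 932 with several, 9211 with none). Groups came from the labels alone. Genes with a mean under 4 over the arrays compared were left out, and differences were tested with limma 3.58.1 (R 4.3.3), two-sided, with Benjamini-Hochberg adjustment over all genes tested and a threshold of 0.05. "Rose", "fell", "higher" and "lower" of tested genes mean a call. Comparisons of 1 array with 1 array have no test and were counted at a log2 size of 1. The fits were tested on simulated data.

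The text names all members. Of the wider lists it names the 6 highest and 6 lowest genes called, or past a size of 1, in each comparison. For the control arrays of the systems only counts are given. Cdkn1a, Trp53, Rb1, Rbl1, Men1, Myc, Mycn, Skp2 and Fbxw7 were to be named whatever their result. They are given, where they passed the filter, for MIN6 against islets, the pooled miR-7 vectors and KO against WT islets. Members and lists were chosen with earlier results of these data known. Sequences are from RefSeq tables of assembly GRCm38.p6. Alternatives covered the filter, the probe set rule, scaling, the spread estimate and leaving out arrays.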

Additional observations from a re-analysis of the deposited data

Results flagged for a closer look

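In 4 of the 37 members checked, 1 of the 4 MIN6 arrays stood apart by Dixon's criterion, which chance alone meets in about 1 of 20 groups. Cdkn2c, the p18 inhibitor, read 12.7573 with AdGFP, and the nearest miR-7 array read 12.4471. Mcm4, a helicase subunit, read 12.6442 on AdmiR7a array 2, against a nearest value of 12.2152. Foxm1 read 8.1344 on the same array, while the 3 others gave 7.9234 each. Ccne1 read 10.8734 on AdmiR7a array 1, while the 3 others gave 10.8704 each, a range of only 0.003. The identical values of Foxm1 and Ccne1 make their ratios extreme whatever the size of the gap. Cdkn2c is 1 of the 5 members that fell with miR-7, and its lone array is the control.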

How the results depend on the processing

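In MIN6 against islets, a filter at a mean of 6 left 1 member lower, because Ccnd1 was no longer tested. A mean of 4 in both systems, chosen after seeing the data, left 18 members higher and 1 lower, with fewer genes tested. For the pooled miR-7 vectors against AdGFP, no filter gave 943 genes called and 0 members lower. An intensity trend gave 1 member higher (Mcm5, 0.35, adjusted p = 0.0472) and 6 lower, the sixth being Top2a (adjusted p = 0.0485). The mean of a gene's probe sets gave 5 lower, with Top2a called (-0.33, adjusted p = 0.0499) and Ccnd3 under the filter and untested, and leaving out a miR-7 array gave 0 genes and 0 members (lowest and highest alike). For AdmiR7a against AdGFP, where the main count was 0, no filter gave 323 genes called. A filter at 6 gave 1744 genes and 4 members lower, the mean of a gene's probe sets 967 and 2, centring on the median 2254 and 4, and quantile normalization 2051 and 4. For AdmiR7b against AdGFP, the mean of probe sets gave 553 genes past a size of 1, and a limma contrast borrowing the AdmiR7a spread gave 0 genes and 0 members. In KO against WT islets, no filter gave 2 members higher and 1 lower, a filter at 6 gave 155 genes, and the mean of probe sets gave 183 genes and 0 members higher (Pole4 at 0.78). Unless a reason stands beside it, the cause was not tested. No member that was called, or past a size of 1 where there was no test, changed direction under the alternatives run. Small differences of other members could change sign. In AdmiR7a against AdGFP, Ccne2 was at 0.02, and at -0.18 without AdmiR7a array 2. Cdkn1b was at -0.02 there, and at 0.08 without AdmiR7a array 1. No paired analysis was possible because the groups compared share fewer than 2 replicate numbers. Leaving out an AdmiR7a array in the fits with a mean per vector leaves no residual degrees of freedom and was not tested. With 1 AdGFP array and 1 islet array per genotype, the number of arrays sets the limit.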

Other observations

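A few mitosis genes were high in islets although the proliferation markers were at background. Of the 44 other mitosis genes, 28 were under 4 in both islets and 4 were at 9 or more in both, namely Spc25, Bub3, Pttg1 and Smc4, singled out after their values were seen. Spc25, a kinetochore subunit, stood at 14.50 and 14.45 with AdmiR7a, 14.49 with AdmiR7b and 14.81 with AdGFP, and at 13.23 in KO and 12.28 in WT islets. In the RefSeq gene table its neighbour is G6pc2, the islet glucose-6-phosphatase subunit, which stood at 14.90, 14.90, 14.69 and 15.12 on the same MIN6 arrays and at 14.98 and 14.86 in KO and WT islets. Pttg1, the securin, stood at 9.47 and 9.53 with AdmiR7a, 9.47 with AdmiR7b and 9.95 with AdGFP, and at 12.03 in KO and 11.89 in WT islets. Rb1 fell with miR-7 in MIN6 and read 11.24 in KO, against 10.66 in WT islets.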
